A study of Homo sapiens with 30 samples.

Results

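The HOXC cluster was examined through the peaks that lie in or within 3 kb of its 9 protein-coding genes, HOXC4, HOXC5, HOXC6, HOXC8, HOXC9, HOXC10, HOXC11, HOXC12 and HOXC13, out of 20037 protein-coding genes in the annotation. The genes lie on chromosome 12 between 53938831 and 54056030 (GRCh38), and all 9 were found. Membership rested on gene position and not on any measured value. With 3 kb each side, the 9 windows joined into 5 stretches of 107290 bp in all. Exon positions were not used here, so a peak is placed by gene body and by its distance from the annotated start.

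HOX genes encode homeodomain transcription factors that give body segments their identity along the head-to-tail axis. Their order on the chromosome follows the order in which they act along that axis, and the HOXC cluster lacks the most anterior paralog groups. HOXC4 is known from the caudal hindbrain and neck level, HOXC5 to HOXC9 from the cervical to thoracic spinal cord, and HOXC10 to HOXC13 from the lumbar level and below. In pluripotent cells HOX genes are held silent by Polycomb complexes, and retinoic acid opens them from the anterior end of the cluster onwards.

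The cells were H1, an established human embryonic stem cell line of wild-type genotype, assayed with OmniATAC-seq, a method in which a transposase cuts and tags DNA that is not shielded by nucleosomes. There were 10 groups of 3 libraries. Undifferentiated pluripotent cells (hPSC) were collected on day 0. Definitive ectoderm (DE) followed 1 day later, after exposure in CDM2 medium to A8301, trametinib, C59 and LDN193189, which block TGF-beta, MEK, WNT secretion and BMP signalling. On day 2 DE had become anterior neural ectoderm (aNE), kept in A8301, LDN193189 and C59 with thiazovivin, a ROCK inhibitor, or posterior neural ectoderm (pNE), kept in A8301 and LDN193189 with the retinoic acid receptor agonist TTNPB, FGF2, the tankyrase inhibitor XAV939 and thiazovivin. Both day 2 populations then received telencephalon (T), midbrain (M) or hindbrain (H) medium up to day 4, which gave aNE_T, aNE_M, aNE_H, pNE_T, pNE_M and pNE_H. The labels describe in part the telencephalon medium (XAV939, LDN193189 and FGF2 at first). The composition of the other day 4 media was not analysed here. All groups came from 1 cell line. The plating density was 37500 per square cm for aNE and pNE. For cells bound for day 4 it was 75000 on the anterior path and 150000 on the posterior path.

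Each group had 1 peak list with positions and no heights, so the values below have no replicate error, read depth is unknown, and a difference is between lists. In bulk chromatin, fewer cells with an open site and a less open site in every cell cannot be told apart. The lists held 167792 (aNE) to 313095 (pNE_H) peaks on chromosomes 1 to 22, X and Y, covering 75.5 to 129 Mb. Each of 26 marker genes for pluripotent, neural, anterior, posterior and other cells had bases in peaks in all 10 lists, and the lowest value was 417 bases. Presence of peaks near these genes therefore did not set the populations apart.

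The sequence table held promoter windows for 2 of the 9 members, HOXC4 and HOXC5, which share 1 annotated start. This window (chromosome 12, 54016638 to 54016937, plus strand) had a peak in pNE_M and in no other list. The 189 bases of that peak are shown because no other list had a peak in this promoter. They are set beside the 247 bases of the promoter of FLJ12825, a long noncoding RNA gene that starts just past the end of HOXC4 (its window 54058004 to 54058303, plus strand), which belong to a region open in 9 of the 10 lists, all but aNE_H. Capitals mark matches to motifs searched on both strands.
HOXC4 and HOXC5, chr12:54016717-54016905, plus strand, GRCh38: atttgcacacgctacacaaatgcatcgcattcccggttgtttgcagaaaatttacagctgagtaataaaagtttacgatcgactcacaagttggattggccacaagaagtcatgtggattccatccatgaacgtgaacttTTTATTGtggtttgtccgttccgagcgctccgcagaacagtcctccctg
FLJ12825, chr12:54058057-54058303, plus strand, GRCh38: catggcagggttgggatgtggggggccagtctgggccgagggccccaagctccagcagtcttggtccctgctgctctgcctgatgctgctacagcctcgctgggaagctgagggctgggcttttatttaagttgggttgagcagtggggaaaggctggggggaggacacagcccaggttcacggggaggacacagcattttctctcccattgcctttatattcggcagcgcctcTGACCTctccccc
The motifs were AGGTCA (nuclear receptor core motif), TTTATNG (CDX), TGATTNAT (HOX with PBX) and AGGNGGC (part of the CTCF motif). The HOXC4 stretch held 1 match, to TTTATNG at bases 141 to 147. Of the 35116 promoter windows 6.56% hold this motif in their first 189 bases and 9.73% in all 300. The HOXC4 stretch itself begins further into its window. The FLJ12825 stretch held 1 match, to AGGTCA on the minus strand at bases 235 to 240. This motif is present in 12.0% of promoter windows over 247 bases and in 13.8% over all 300. The other motifs did not match in these letters. The sequences are from RefSeq (GRCh38.p14), and a match is a description of letters, not of a bound site.

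The cluster also holds 2 microRNA genes, MIR196A2 between HOXC10 and HOXC9 and MIR615 inside HOXC5. Their mature sequences are given with the seed, bases 2 to 8, in capitals, because the lists differed at MIR615 and not at MIR196A2.
hsa-miR-615-5p: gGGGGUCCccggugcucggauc
hsa-miR-615-3p: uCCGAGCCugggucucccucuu
hsa-miR-196a-5p: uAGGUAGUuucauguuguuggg
hsa-miR-196a-3p: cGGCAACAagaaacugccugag
None of these seeds is shared with another. The MIR615 hairpin (54033950 to 54034045, 96 bases) lay wholly inside a peak in pNE_M and pNE_H. It had 1 base in a peak in aNE_M and 0 in the other 7 lists. The peaks there were 906 bp wide in pNE_M and 1163 bp in pNE_H. The MIR196A2 hairpin (53991738 to 53991847) had 0 bases in peaks in every list. The miR-196 family is known for acting on HOX transcripts.

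Over the 9 windows together, there were 37 peaks in the hPSC list and 35 in the DE list, and 32 and 27 in the lists of aNE and pNE. The day 4 counts were 31, 28 and 22 in aNE_T, aNE_M and aNE_H, and 35, 39 and 37 in pNE_T, pNE_M and pNE_H. The posterior-derived lists thus had more HOXC peaks than the anterior-derived lists, with no overlap between the groups of 3. With the widest 167792 peaks of every list the groups overlapped, at 30, 31 and 21 against 27, 24 and 21. In bases inside peaks the cluster had 12503 (hPSC), 12047 (DE), 10921 (aNE) and 10865 (pNE). The day 4 values were 11854, 12100 and 10975 in aNE_T, aNE_M and aNE_H, and 12424, 12986 and 16583 in pNE_T, pNE_M and pNE_H. The highest value belonged to the longest list: per Mb of peaks of its own list, pNE_H had 128 bases in HOXC windows and pNE_M had 154, the highest of the 10.

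**Figure D1:**
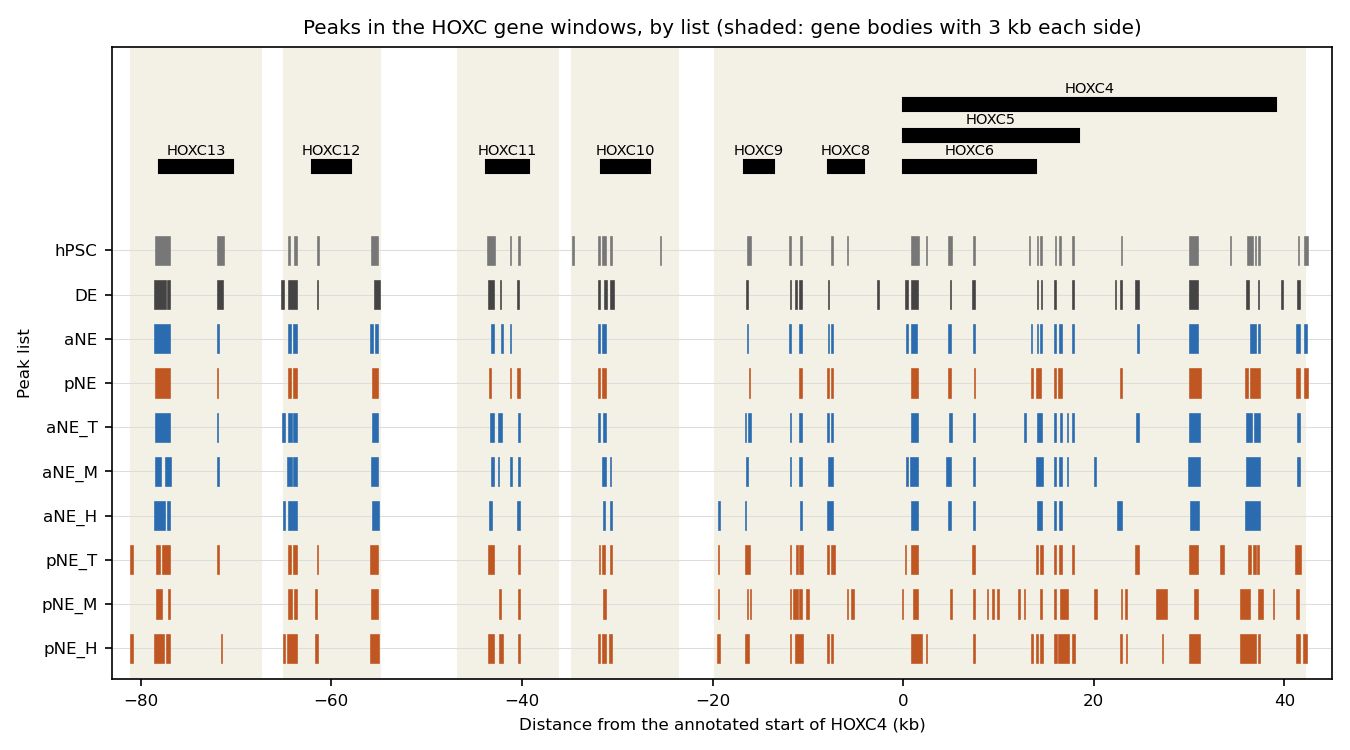
Peaks of the 10 lists (rows) in the shaded HOXC gene windows, by distance in kb from the annotated start of HOXC4, with gene bodies as black bars above. The groups are blue for aNE and its descendants, orange for pNE and its descendants and grey for hPSC and DE; the pNE_M row is dense from HOXC9 to HOXC4 (30 peaks) and sparse from HOXC13 to HOXC10 (9 peaks).

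Summed over the 5' genes, the windows had fewer bases in peaks in DE than in hPSC and fewer again in both day 2 lists. In bases the sum over the 3' genes was nearly level, but not relative to list length. The windows of HOXC13 to HOXC10 together had 6256 bases in peaks in hPSC and 5773 in DE, then 4552 in aNE and 4285 in pNE. Those of HOXC9 to HOXC4 had 6247, 6274, 6369 and 6580. Per Mb of list these 3' windows had 66.8 bases in DE, 84.4 in aNE and 76.3 in pNE. The 5' windows had 61.5, 60.3 and 49.7 per Mb in DE, aNE and pNE. With the widest 167792 peaks of each list the 3' sum was 4700, 6369 and 6290 in these lists. The 5' sum was then 5537, 4552 and 3890. The difference of 27 bases from hPSC to DE in the 3' sum had the other sign for gene bodies alone (5673 and 4786), 10 kb flanks (7956 and 7233) and the widest 167792 peaks (5192 and 4700). Single genes did not all follow these sums: HOXC12 had 1520 bases in hPSC and 1648 in DE, HOXC6 had 2525 and 2313, and HOXC9 had 829 in DE and 591 and 447 in aNE and pNE. This split into 2 parts was made after the lists were seen, along the boundary between paralog groups 9 and 10. HOXC10, which acts in lumbar motor neurons, had 1295 bases in hPSC and 986 in DE, then 607 in aNE and 537 in pNE. HOXC13, a regulator of hair and nail keratins, had 2309, 2167, 1790 and 1679. In bases both genes were lower in DE than in hPSC and lower again in both day 2 lists. For HOXC13 this did not hold per Mb of list, with 23.1 in DE and 23.7 in aNE. Nor did it hold from hPSC to DE with 10 kb flanks (3512 and 3722) or 500 bp around peak midpoints (1000 and 1500).

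Genes were called where their bases in peaks differed by at least 2 times between lists. From hPSC to DE, 0 of the 9 members were called, against 2.89% of 18541 genes higher and 1.48% lower. From DE to aNE 0 members were called, against 0.515% of genes higher and 5.87% lower, and from DE to pNE 0 members, against 1.40% and 5.03%. The median log2 ratio of the members was -0.09, -0.21 and -0.17 in these steps, beside 0.03, -0.17 and -0.10 over all genes. As merged regions, 6 of 56 HOXC regions were open in DE and not in hPSC (10.7%, against 15.1% of all regions) and 8 the other way (14.3%, against 8.83%). In aNE 3 regions were open that DE lacked (5.36%, against 3.40%) and 8 of DE were not open (14.3%, against 18.3%). For pNE these were 3 (5.36%, against 9.90%) and 11 (19.6%, against 17.7%).

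The day 2 populations, anterior and posterior, had nearly equal HOXC totals, with a ratio of pNE to aNE of 0.995. No member was called (0 of 9), against 3.36% of 18280 genes higher and 1.26% lower in pNE. Single members ranged from HOXC9, with 591 bases in aNE and 447 in pNE, to HOXC8, with 637 and 719. HOXC9 sets thoracic motor neuron identity and HOXC8 acts at the brachial to thoracic level. Of the 56 regions, 2 were peaks of pNE alone among the day 2 lists (3.57%), where 12.7% of all regions were, and 5 of aNE alone (8.93%), where 5.54% of all were. A count of 0 among 9 members was near the share of all genes called. Per Mb of list the ratio was 0.871, the longer pNE list having a smaller part of its bases there.

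On day 4 the 6 lists were set side by side by origin. The mean over the 3 lists was 13998 bases for pNE-derived and 11643 for aNE-derived cells, a difference of 2355 with a two-sided exact permutation p of 0.1, the smallest that 3 lists against 3 can give. The ranges of the 2 origins, 10975 to 12100 and 12424 to 16583, overlapped when gene bodies alone, 10 kb flanks or the widest 50% of peaks were taken (exact permutation p of 0.5, 0.2 and 0.8). For HOXC9 to HOXC4 the difference was 2116 (exact permutation p of 0.2) and for HOXC13 to HOXC10 it was 239 (exact permutation p of 0.7). The permutation did not pair lists by medium. Within telencephalon, midbrain and hindbrain medium the pNE-derived list exceeded the aNE-derived list by 570, 886 and 5608 bases over all windows. For HOXC9 to HOXC4 these differences were 386, 2217 and 3745, and for HOXC13 to HOXC10 they were 184, -1331 and 1863. The lists of 1 origin differ in medium and are not replicates. Per Mb of list the difference was 7.44 bases (exact permutation p of 0.5), and pNE_H at 128 lay below all anterior-derived lists, at 131 to 136. Plating density differed with origin, and the narrowest peak was 122 to 126 bp in aNE-derived and 109 to 115 bp in pNE-derived lists. These cannot be told apart from origin.

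HOXC9 was the 1 member of 9 whose bases did not overlap between origins, with 837, 680 and 557 in aNE_T, aNE_M and aNE_H and 1259, 1392 and 1699 in pNE_T, pNE_M and pNE_H. Across all genes 7.57% had every pNE-derived list above every aNE-derived list and 3.21% had the reverse. Among members 0 had the reverse. HOXC9 was also apart per Mb of list, at 13.2 or more against 9.60 or less, but not within its gene body alone, where the lowest pNE-derived list had 290 bases and the highest aNE-derived 384. Within gene bodies alone HOXC12 was apart instead, through the region described further on. Much of the HOXC9 difference lay past its 3' end, in a region at 54005345 to 54006394 that the HOXC8 window shares. There the pNE-derived lists had 529, 804 and 860 bases and the aNE-derived lists 331, 317 and 238, beside 227 in hPSC and 529 in DE. Just past the HOXC9 start, every list had a peak in the merged region at 54000242 to 54000925. It held 480, 290 and 479 bases in the pNE-derived and 384, 241 and 128 in the aNE-derived lists. The peaks there did not all overlap, with pNE at 54000666 to 54000813 and aNE_H at 54000298 to 54000425.

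**Figure D2:**
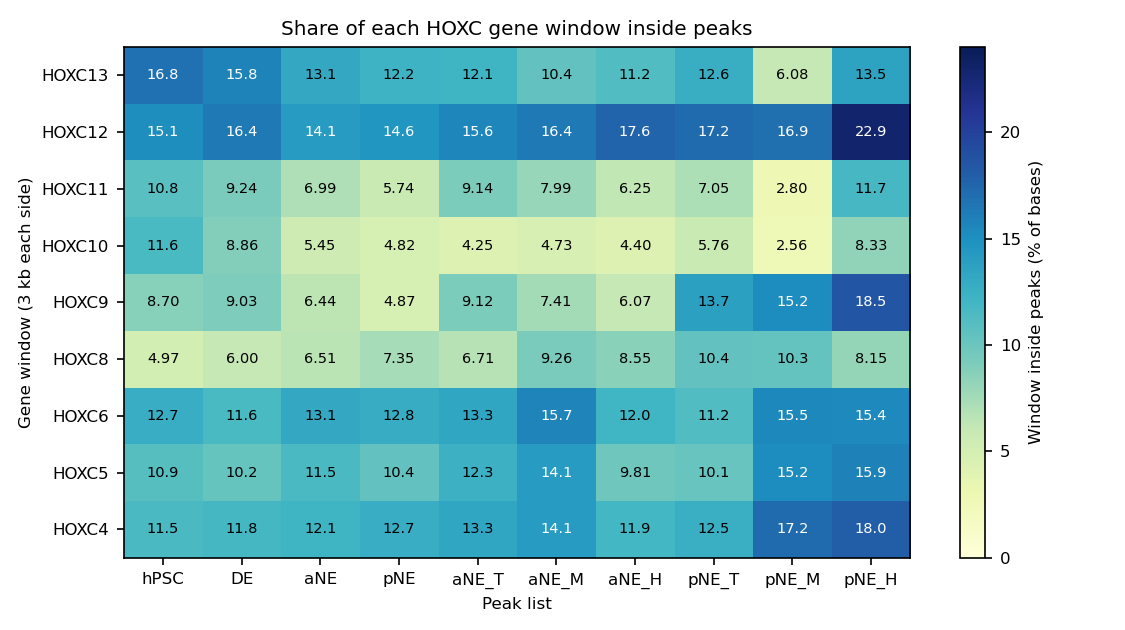
Share of each gene window inside peaks (percent of bases, colour and printed value) for the 9 genes (rows, 5' to 3') in the 10 lists (columns). HOXC9 reached 13.7% to 18.5% in the pNE-derived lists against 6.07% to 9.12% in the aNE-derived lists, and HOXC13, HOXC11 and HOXC10 were lowest in pNE_M at 6.08%, 2.80% and 2.56%.

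The side on which hindbrain medium stood in the 2 origins depended on the scale. Relative to telencephalon medium, hindbrain medium had 0.926 times the bases in aNE-derived and 1.33 times in pNE-derived lists. For midbrain medium the ratios were 1.02 and 1.05. In the aNE-derived lists 0 members were called between any pair of media. The background there was 2.10% higher and 1.52% lower for aNE_M against aNE_T, 2.44% and 3.14% for aNE_H against aNE_T, and 1.25% and 2.21% for aNE_H against aNE_M. Per Mb of list the ratios of hindbrain to telencephalon medium were 0.960 in aNE-derived and 0.924 in pNE-derived lists, both below 1. The pNE_H list covers 129 Mb and the pNE_T list 89.4 Mb.

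Each day 4 list was also set against its day 2 source. Plating density was 37500 per square cm for the source lists, 75000 for the aNE-derived and 150000 for the pNE-derived lists. Its part in these comparisons was not tested. None of the aNE-derived lists had a called member (0 of 9 each), where 3.18% of genes were higher and 1.18% lower in aNE_T, 4.21% and 1.37% in aNE_M, and 3.84% and 2.41% in aNE_H. Among the pNE-derived lists HOXC9 was at least 2 times higher than in pNE in all 3. The share of genes higher in all 3 was not counted, so this pattern has no background here. In pNE_M 2.15% of genes were higher. With 10 kb flanks HOXC9 was not called in pNE_T and pNE_M, at 2557 and 2524 bases against 1449 in pNE. For the gene body alone it was not called in pNE_M, at 290 against 148. In pNE_T HOXC9 was the 1 called member, beside 3.12% of genes higher and 2.84% lower. In pNE_H HOXC11 was higher as well, making 2 members, beside 7.80% and 0.930%. The median log2 ratio of the members to pNE was 0.24 in pNE_T, 0.28 in pNE_M and 0.61 in pNE_H, beside 0.00, -0.09 and 0.30 over all genes. These 3 comparisons share the pNE list, whose HOXC9 value is the lowest of the 10.

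By origin within a medium, 0 members were called in telencephalon medium, where 3.00% of genes were higher in pNE_T and 2.88% lower. In hindbrain medium HOXC9 was the 1 called member, higher in pNE_H, as were 9.31% of genes, with 0.935% lower. Between pNE_H and pNE_T 0 members were called, against 7.35% higher and 1.06% lower.

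The pNE_M list had the most uneven cluster. The windows of HOXC9 to HOXC4 had 9871 bases in peaks there and those of HOXC13 to HOXC10 had 3115, a ratio of 3.17. The other 9 lists had ratios from 0.999 in hPSC to 1.72 in aNE_M. Its 5' part was the lowest of all lists, next to 4285 bases in pNE, while its 3' part was second to pNE_H, at 10269. Per Mb of list the 3' part of pNE_M, at 117, stood above the others, which had 66.8 to 84.8. The ratio of pNE_M was the highest of the 10 under each of the 6 other ways of choosing peaks or windows, between 2.46 and 6.42.

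**Figure D3:**
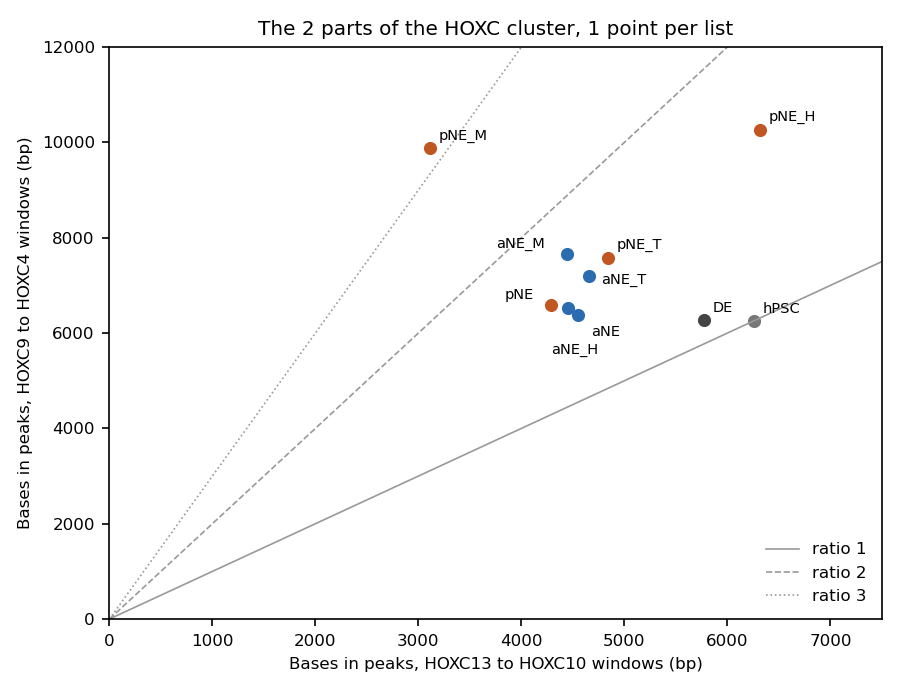
Bases in peaks in the windows of HOXC13 to HOXC10 (x axis, bp) and of HOXC9 to HOXC4 (y axis, bp), 1 point per list, with lines at ratios of 1, 2 and 3. The pNE_M point lies alone above the line for 3, at 3115 and 9871 bp, hPSC lies on the line for 1, and pNE_H is high on both axes.

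Against pNE_T, the list of the same origin in telencephalon medium, 3 of the 9 members in pNE_M were lower by at least 2 times (HOXC13, HOXC11 and HOXC10) and 0 were higher, where 3.96% of 18377 genes were lower and 2.29% higher. Against its day 2 source pNE, HOXC13 and HOXC11 were lower and HOXC9 was higher, beside 3.68% and 2.15% of genes. Against aNE_M, HOXC11 was lower and HOXC9 higher, beside 4.18% and 2.01%. Against pNE_H, where 10.1% of genes were higher in pNE_H and 0.784% lower, the same 3 genes HOXC13, HOXC11 and HOXC10 were higher in pNE_H. Of the 30 other HOX genes, 2 were lower in pNE_M than in pNE_T (HOXA2 and HOXD4) and 1 was higher (HOXA7).

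Among the 5' genes, HOXC13 had 834 bases in pNE_M and 1426 to 2309 in the other lists. Its main region, at 53938262 to 53940015 over the start, was open in all 10 lists and had 834 bases in pNE_M against 1231 to 1626 elsewhere. HOXC11, a posterior gene overlapped by the long noncoding RNA gene HOTAIR, had 295 bases in pNE_M and 604 to 1231 elsewhere. The region just past its start (53973223 to 53974031) was open in every list but pNE_M, with up to 809 bases in hPSC. That class held 2 of the 56 regions (3.57%), the other at HOXC8, where 0.696% of all regions were open in every list but pNE_M. HOXC10 had 285 bases in pNE_M, in 1 peak, and 473 to 1295 elsewhere. HOXC12 went against its neighbours, with 1701 bases in pNE_M and 1420 to 2302 over all lists, the highest in pNE_H. HOTAIR itself, over its gene body, had 1838 bases in hPSC, 1390 in pNE_H and 587 in pNE_M, the last being the lowest.

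HOXC12 also held the 1 region that all 3 pNE-derived and no aNE-derived list had open, at 53955190 to 53955545, in the gene body just past its start. It had 183, 214 and 254 bases in pNE_T, pNE_M and pNE_H. The region was also open in hPSC (200 bases) and DE (124 bases) and in neither day 2 list. That is 1 of 56 regions (1.79%), where 2.33% of all regions had this pattern. The reverse pattern had 0 HOXC regions, beside 0.633% of all.

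In the middle of the cluster, HOXC8 had 486 bases in hPSC, 587 in DE, and 637 and 719 in the day 2 lists. On day 4 it had 657, 906 and 837 in the aNE-derived and 1020, 1008 and 797 in the pNE-derived lists. The groups of 3 overlapped through pNE_H. Over its start, the region at 54008898 to 54009744 was open in every list but pNE_M, with 387 and 642 bases in pNE_H and pNE_T. The HOXC8 bases of pNE_M lay elsewhere. They were 256 at 54006721 to 54006976 and 308 at 54011437 to 54011744, both open in this list alone, 139 at 54010945 to 54011130, which hPSC also had, and the part of the region shared with HOXC9 that falls in the HOXC8 window.

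HOXC6, HOXC5 and HOXC4 share their annotated start, so their windows are nested and a peak in HOXC6 counts for all 3. HOXC6, active at brachial level, had 2238 (pNE_T) to 3125 (aNE_M) bases, with 3087 in pNE_M and 3069 in pNE_H. HOXC5 had 2401 in aNE_H to 3881 in pNE_H. HOXC4, the most anterior member, had 5190 bases in hPSC, 5315 in DE, then 5442 in aNE and 5713 in pNE. On day 4 HOXC4 had 6004, 6362 and 5368 bases in the aNE-derived and 5657, 7776 and 8126 in the pNE-derived lists. The pNE_M and pNE_H values of HOXC4 and HOXC5 lay above those of all other lists, and pNE_T lay within the aNE-derived range. Per Mb of list this held for pNE_M, with 92.4 for HOXC4 and 44.2 for HOXC5, and not for pNE_H. HOXC4 in pNE_H was then 62.9, below the aNE-derived lists at 63.9 to 69.7, and HOXC5 was 30.0, inside their range of 28.6 to 37.7. As a share of window length in pNE_H, HOXC4 had 18.0%, HOXC5 15.9% and HOXC6 15.4%.

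Around each annotated start, 500 bp to either side, a peak was present in all 10 lists for HOXC13 (609 to 1000 bases) and HOXC10 (209 to 591 bases). HOXC9 had one in 9 lists, all but pNE, and HOXC8 in 9, all but pNE_M. HOXC11 had one in 8 lists, with 0 bases in aNE_M and pNE_M. HOXC12 had bases there in 5 lists, 212 in pNE_H, 213 in pNE_M and 66 or fewer in hPSC, DE and pNE_T, and 0 in the day 2 and aNE-derived lists. The start shared by HOXC4, HOXC5 and HOXC6 had 272 in DE, 236 in aNE, 249 in aNE_M, 115 in pNE_T and 189 in pNE_M, and 0 in the other 5. The starts of HOXC13 and HOXC10 were thus covered in more lists than the start shared by HOXC4, HOXC5 and HOXC6. That of HOXC12 was covered in as many lists as the shared start, 5. The number of lists did not follow the order of the genes. Only the pNE_M peak reached the promoter window printed above, the others lying downstream of it.

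The lists were then merged. Of the 56 merged HOXC regions, 12 were open in all 10 lists (21.4%, against 16.5% of all merged regions) and 16 in 1 list (28.6%, against 33.5%). The 8 widest constant regions lay over the HOXC13 start (1754 bp), at 53952232 to 53953335 before HOXC12, at 53960944 to 53962002 after it, and at 54005345 to 54006394 between HOXC9 and HOXC8. The other 4 lay in the HOXC4 gene body, at 54017623 to 54018844 past the shared start, at 54030857 to 54031542 in HOXC5, and at 54046830 to 54048163 and 54052189 to 54054693. A further 5 regions were open in 9 lists (8.93%, against 4.30% of all). Besides the 2 that pNE_M lacked, DE lacked 54033156 to 54034318 in HOXC5 (1.79%, against 0.213%). This region spans MIR615, but only the peaks of pNE_M, pNE_H and, by 1 base, aNE_M reached the hairpin. In HOXC11, aNE lacked 53976355 to 53976725 (1.79%, against 0.594%), and aNE_H lacked the FLJ12825 promoter region (1.79%, against 0.379%). The widest of the constant regions, 2505 bp near the 3' end of HOXC4, held 1929 bases in pNE_H, 1636 in pNE_M and 508 in DE.

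Of the 16 regions found in 1 list 8 belonged to pNE_M. These 8 of 56 regions (14.3%) were open in pNE_M only, where 3.62% of all 493444 merged regions were. All 8 lay in the HOXC9 to HOXC4 windows. They were at 54006721 to 54006976 between HOXC9 and HOXC8, at 54011437 to 54011744 in HOXC8, at 54016717 to 54016905 over the shared HOXC4 start printed above, and at 54025660 to 54025801, 54026162 to 54026380, 54026722 to 54026918 and 54028923 to 54029130 in HOXC6. The last was at 54055650 to 54055793 near the end of HOXC4. They were 142 to 308 bp wide, beside a median peak of 267 bp in this list. With the widest 50% of peaks of each list 2 regions were of this kind. Against pNE, pNE_M had 18 further open regions (32.1%, against 12.9% of all) and lacked 7 (12.5%, against 11.0%). For pNE_H these were 11 (19.6%, against 27.3%) and 2 (3.57%, against 5.53%), and for pNE_T 9 (16.1%, against 13.7%) and 4 (7.14%, against 11.6%). For pNE_M against pNE, the share of further regions was 18.0% in HOXA, 27.4% in HOXB and 24.4% in HOXD, all above 12.9%. Among all promoter windows 0.293% had a peak in pNE_M only, as that of HOXC4 and HOXC5 did.

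**Figure D4:**
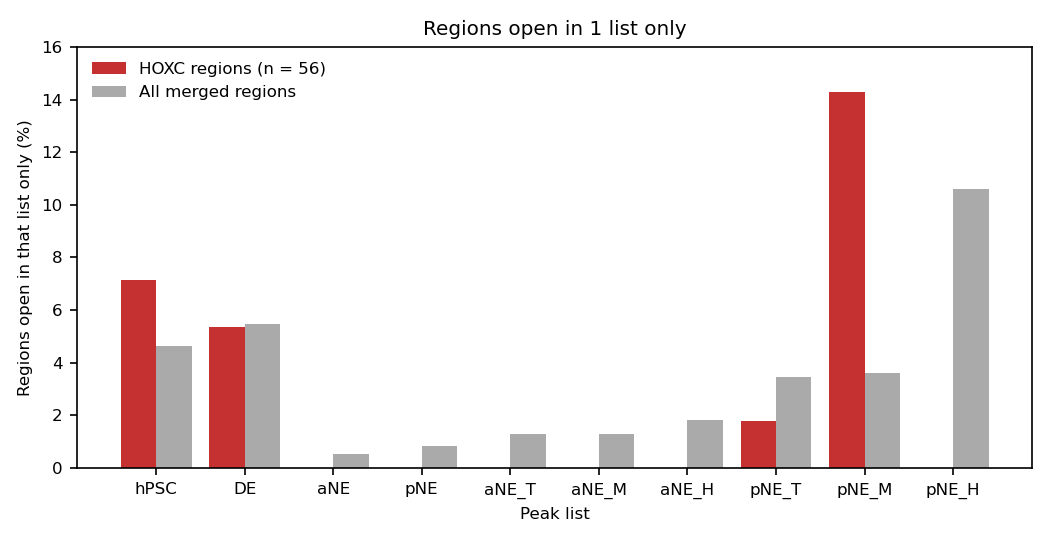
Percent of merged regions open in exactly 1 list, by that list (x axis), for the 56 HOXC regions (red bars) and all merged regions (grey bars). The HOXC bar is 14.3% for pNE_M beside 3.62% over all regions, and there is no HOXC bar for pNE_H, beside 10.6%.

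Other lists had few regions of their own here: 4 in hPSC (7.14%, against 4.63% of all), 3 in DE (5.36%, against 5.46%), 1 in pNE_T (1.79%, against 3.45%) and 0 in pNE_H (against 10.6%). The region of pNE_T was at 54050159 to 54050512 in HOXC4. Those of hPSC were at 53982173 to 53982319 and 53991373 to 53991518 on either side of HOXC10, at 54030060 to 54030207 in HOXC6 and at 54051142 to 54051311 in HOXC4. DE had 54014193 to 54014382, 54039130 to 54039268 and 54056527 to 54056734. The pNE_M and pNE_H lists alone shared regions at 54040165 to 54040403 and 54043428 to 54044571 in the body of HOXC4. At the latter a single peak of 1144 bp in pNE_M stood beside 1 of 119 bp in pNE_H.

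The same measure was taken in the other clusters. The share of gene windows inside peaks ranged over the lists from 10.1% to 15.5% in HOXC, from 11.8% to 19.7% in HOXA, from 10.3% to 20.3% in HOXB and from 12.5% to 20.4% in HOXD. The pNE-derived mean was 1.20 times the aNE-derived mean in HOXC, 1.32 in HOXD, 1.41 in HOXA and 1.63 in HOXB. Of the 30 HOX genes outside HOXC, 13 had every pNE-derived list above every aNE-derived list, among them HOXB1, HOXB3, HOXB4, HOXB5 and HOXA3, beside 1 of the 9 HOXC genes. HOXC was thus lowest on this ratio, a difference between clusters that was not tested.

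**Figure D5:**
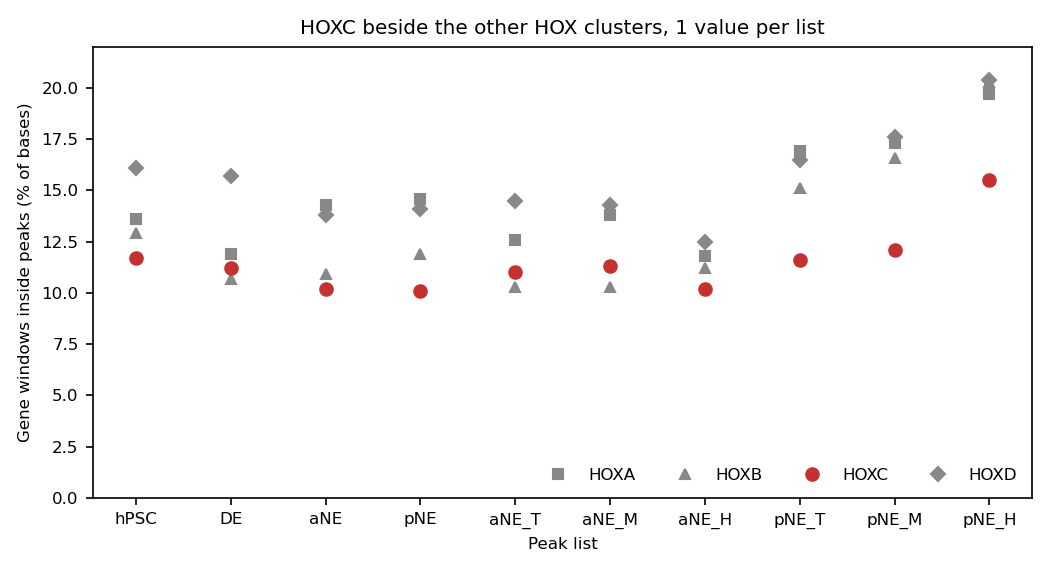
Share of the gene windows of each HOX cluster inside peaks (percent of bases, y axis from 0) in the 10 lists (x axis), 1 value per list. HOXC (red circles) is the lowest cluster in 7 of the 10 lists and in all 3 pNE-derived lists, where it reached 11.6%, 12.1% and 15.5%.

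Split at the same paralog groups, HOXA had a ratio of 3' to 5' bases of 2.78 in pNE_M, inside its range of 1.98 to 3.17, and HOXD had 1.91, the highest of its range from 1.05. HOXB has no member in groups 10 to 12 and was not split. Regions open in pNE_M only made up 2 of 50 in HOXA (4.00%), 2 of 62 in HOXB (3.23%) and 2 of 41 in HOXD (4.88%), beside the 3.62% over all regions and 14.3% in HOXC. Regions open in all 3 pNE-derived and no aNE-derived list numbered 5 of 50 in HOXA (10.0%), 7 of 62 in HOXB (11.3%), 3 of 41 in HOXD (7.32%) and 1 of 56 in HOXC (1.79%), where 2.33% of all regions had this pattern.

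The genes whose bases ranked most like the HOXC total over the 10 lists were KCNV2 (Spearman rho 0.98), FASTKD1 (0.95) and OVCH2 (0.94), among 17164 genes with at least 1000 bases in some list. These points share the lists and their lengths: rho with the size of the list was 0.43, and the median over the genes was 0.21. In KCNV2, a potassium channel subunit gene, the values ran from 568 bases in pNE to 2328 in pNE_H, with 1617 in pNE_M. Among known regulators and partners of HOX genes (CDX, RAR, MEIS, PBX and others), 1 of 14 had every pNE-derived list above every aNE-derived list, a share close to the 7.57% over all genes. That gene was RARB, a retinoic acid receptor gene, with 18832 to 19972 bases in the aNE-derived and 26096 to 45127 in the pNE-derived lists.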

How the data were processed

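The submitters' processing notes name FastQC, Bowtie2, MACS2, bedtools, featureCounts, edgeR and deepTools and the build hg38, with no version, threshold or statement of how replicates were combined. The authors deposited 1 list of peak positions per group, with 3 columns and no score. Each list was matched to its group by the population name. Gene positions were taken from RefSeq (GRCh38.p14). A peak belonged to a gene where it overlapped the gene body with 3 kb each side by at least 1 bp. Peaks of a list were merged before bases were summed, and peaks of the 10 lists were merged into 493444 regions. A region was open in a list with any peak in it, so the peaks of different lists in a region need not overlap. With 1 list per group no replicate test was possible. The exact permutation test over day 4 lists was run for cluster totals. Genes with bases in either list were called at a ratio of at least 2.

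All 9 members were named. Regions open in every list (the 8 widest), in 1 list or by origin were named too, and the 3 most alike genes. The members, lists and tests were chosen with earlier results of these data known. Python 3.11.15 with numpy 2.4.6, scipy 1.17.1 and matplotlib 3.10.9 was used.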

Additional observations from a re-analysis of the deposited data

Results flagged for a closer look

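In bases, hindbrain medium differed from the other media in opposite directions in the 2 origins. From telencephalon to hindbrain medium the HOXC windows together differed by -879 bases in aNE-derived and by 4159 bases in pNE-derived lists. From midbrain to hindbrain medium the values were -1125 and 3597 bases. For the windows of HOXC9 to HOXC4 they were -673 and 2686 bases from telencephalon and -1130 and 398 bases from midbrain medium. For the windows of HOXC13 to HOXC10 they were -206 and 1473 bases from telencephalon to hindbrain medium. Each value is the difference of 1 list from 1 other, so the difference between origins was not tested. The pNE_H list is also the longest, with 313095 peaks on the main chromosomes. Per Mb of list the opposite direction was lost: the ratio of hindbrain to telencephalon medium for all windows was 0.960 in aNE-derived and 0.924 in pNE-derived lists. Against midbrain medium the values per Mb were 131 and 133 in aNE_H and aNE_M, and 128 and 154 in pNE_H and pNE_M. With the widest 167792 peaks of each list the ratios to telencephalon medium were 0.956 and 1.18.

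Peaks also lay between the gene windows, in 15910 bp that the comparisons did not use. They covered from 615 bases in aNE_M to 2449 bases in hPSC. Most lay in the body of HOTAIR, with 1029 bases in hPSC and 350 in pNE_H in the stretch from 53961957 to 53970125, and around HOXC-AS2 between HOXC10 and HOXC9, with 1113 bases in hPSC and 175 in aNE_M.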

How the results depend on the processing

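The alternatives were gene bodies alone, 10 kb flanks, the widest 167792 peaks or the widest 50% of peaks of each list, peaks with most of their length inside the window, 500 bp around peak midpoints, and, added after the lists were seen, bases per Mb of list. Counts and ratios that changed by over 1.5 times were taken as moved, and differences by origin only by their sign. Of 154 values recomputed, 16 moved and 1 reversed on these terms. The origin difference of 2355 bases kept its sign but ranged from 1060 to 4765 (exact permutation p from 0.1 to 0.8), and was 7.44 per Mb of list. The median number of HOXC peaks per list was 33.5 and became 15.5 with the widest 50% of peaks. The regions open in all pNE-derived and no aNE-derived list numbered 1, became 2 where peaks had to cover at least 0.5 of a region, and 0 with the widest 50%. For HOXC9, the lowest pNE-derived minus the highest aNE-derived list was 422 bases, 155 to 473 under the other settings in bases, and -94.0 for the gene body alone, which leaves out the region beyond its end. The other 13 that moved were ratios of the 3' to the 5' part and the count of regions of pNE_M alone. The split into 2 parts and that class of regions were chosen after the lists were seen. No paired analysis was possible because each group has 1 peak list, with no replicate of its own, and for the same reason no replicate could be left out. Depth is unknown, so a missing peak does not show closed chromatin.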

Other observations

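The genes on either side of the cluster were taken from a list of 8 neighbours. SMUG1, a DNA repair glycosylase gene on the HOXC4 side, had 3523, 3364 and 2705 bases in peaks in aNE_T, aNE_M and aNE_H and 3605, 4259 and 4448 in pNE_T, pNE_M and pNE_H. COPZ1, a coatomer subunit gene further on, had 3728, 3557 and 2927 and 4081, 3843 and 3887. These were the 2 of 8 neighbours with no overlap between origins, both higher in the pNE-derived lists, where 7.57% of all genes were.

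The long noncoding RNA gene FLJ12825, which runs on from the HOXC4 end, had 8847 bases in peaks over its gene body in pNE_H. The other lists had 4259 to 5918. The pNE_H list covers 129 Mb and the others 75.5 to 93.9 Mb, and these values were not scaled to list length. HOXC-AS1, which lies just before HOXC9, had 0 bases in its gene body in all 10 lists. HOXC-AS2 had 897 in hPSC, 0 in aNE_M and 217 to 564 in the other lists.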
